A study of Rattus norvegicus with 18 samples.

Results

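NF-kB pathway genes were examined in poly(A) RNA from the cervical dorsal root ganglia (DRG) of adult rats. The 9 genes were Map3k14, Traf2, Traf3, Birc3, Nfkb2, Relb, Nfkb1, Rela and Nfkbia, chosen by symbol. Map3k14 was chosen because it had been higher with neurotrophin-3 (NT3) in earlier results of these same data, and the other 8 are its pathway partners. Of the 9 genes, 7 matched a row among the 15075 RefSeq identifiers of the count table, and no identifier there matched Traf3 or Relb, so neither is analysed here. The 7 rows were Map3k14 (NM_001108301), Traf2 (NM_001107815), Birc3 (NM_023987), Nfkb2 (NM_001008349), Nfkb1 (NM_001276711), Rela (NM_199267) and Nfkbia (NM_001105720).

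In the canonical NF-kB pathway, inflammatory receptors activate a kinase complex that destroys IkB proteins such as the product of Nfkbia, and this frees dimers of RelA and p50 (made from Nfkb1) to enter the nucleus. In the noncanonical pathway, NF-kB-inducing kinase (NIK, the product of Map3k14) drives the processing of p100 (from Nfkb2) into p52, which pairs with RelB. In resting cells a complex of TRAF2, TRAF3 and cIAP ligases (one of them the product of Birc3) keeps NIK protein low by marking it for degradation, so that mRNA levels need not follow pathway activity. Nfkb2, Relb, Nfkbia and Birc3 are themselves well known NF-kB target genes. In sensory ganglia the pathway has been linked to neuron survival, glial responses and pain.

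All rats were adult Lister hooded rats. Naïve rats were unoperated and untreated. The other 12 rats had both corticospinal tracts cut in the medullary pyramids (bPYX) and received injections into the forelimb flexor muscles on 1 side of an AAV1 vector in which the CMV promoter drives either GFP (bPYX+GFP) or human prepro-neurotrophin-3 (bPYX+NT3). In these 12 rats ganglia C6 to C8 of the treated side were taken 10 weeks after injury. Ganglia C6 to C8 were pooled within each rat but not between rats, so that each of the 18 libraries, 6 in each of the 3 groups, is a separate animal. CMV is not specific to a cell type, and a whole ganglion holds neurons, satellite glia, Schwann cells, fibroblasts, vessels and immune cells. In such bulk samples fewer cells of a type and less RNA per cell cannot be told apart.

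Each library held between 10057787 and 16002410 read-pairs on genes, and at least 13428 genes had reads in each rat. Levels are given as CPM, counts scaled to a common library size by TMM. Of the neuron genes, Rbfox3 averaged 37.1, 39.4 and 42.3 CPM in naïve, GFP and NT3 rats, Nefh 2202, 2375 and 2503 CPM and Tubb3 495, 558 and 635 CPM. The macrophage markers summed to medians of 109, 110 and 105 CPM. None of the 5 macrophage markers or of the 3 lymphocyte markers tested passed an unadjusted p of 0.05 in any comparison. Of the 3 fibroblast markers, those that passed were lower than in naïve rats, Col1a1 with GFP and with NT3 (log2 fold change -0.49 and -0.34), Lum with GFP (-0.23) and Dcn with NT3 (-0.28). The Schwann cell gene Pmp22 passed against naïve rats with GFP and with NT3 (-0.31 and -0.31), while Prx did not. The mast cell gene Cpa3 passed as lower in all 3 comparisons, while Kit was at -0.03, -0.0031 and 0.03. The mast cell gene Fcer1a, with 3 to 14 read-pairs per rat, was too low for edgeR. It averaged 0.768, 0.767 and 0.436 CPM in naïve, GFP and NT3 rats. Its exact permutation p were 0.738 for GFP against naïve, 0.00216 for NT3 against naïve and 0.0411 for NT3 against GFP rats. The satellite glia gene Kcnj10 passed as higher in NT3 than in GFP rats (0.42), where Glul was at -0.10 and Fabp7 at 0.13. The adipocyte gene Adipoq had a median of 1.37 CPM in NT3 rats against 4.64 in naïve and 7.06 in GFP rats. Its log2 fold changes with NT3 were -1.85 against naïve and -2.11 against GFP rats. Both passed in edgeR (unadjusted p of 0.0248 and 0.0120), while the exact permutation p were 0.214 and 0.13. The part of these cell types in the results below was not tested. In 2 libraries, those of bPYX+NT3 rat 11 and bPYX+GFP rat 57 (numbers as in the table heading), the share of read-pairs that fell on no gene feature was lowest, at 30.8% and 31.7%, against 32.5 to 34.6% in the other 16. Groups follow the sample numbers in the table heading, which match the submitters' descriptions. The per-rat files were recorded under titles that name another group for 17 of the 18 rats, and under that grouping the NT3 differences changed sign for all 7 genes against naïve rats and for 5 of the 7 (not Birc3 or Nfkbia) against GFP rats. The study's own log2 fold changes of Adipoq with NT3, -1.85 against naïve and -2.11 against GFP rats, equal those under the heading groups. The study also lists Map3k14 as higher with NT3, the direction that the file titles reverse.

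Since several of these genes are themselves NF-kB targets, the sequence around the start of the genes was read from RefSeq (build GRCr8, 250 bases before the start and 50 after). Of the 9 genes, 7 had an entry. A match to the NF-kB consensus on either strand was present in 4 of the 7, against 7.51% of 33469 promoters. The matches were GGGACTTTCC in Nfkb2 (first base at -20 from the start), GGGAATTTCC in Nfkb1 (at 4), GGGGATTTCC in Traf3 (at -10) and, read on the opposite strand, GGAAATTCCC in Nfkbia (at -31). The exact form in Nfkb2 was present in 0.111% of all promoters. No match was found in Map3k14, Rela or Traf2, and a match here is only a run of letters. The promoters of Map3k14 (chr10:88715543-88715842, minus strand), Nfkb2 (chr1:255108124-255108423, plus strand) and Nfkb1 (chr2:226805413-226805712, minus strand) are shown because Map3k14 is the gene chosen for its NT3 difference, while Nfkb2 and Nfkb1 are the measured subunit genes with a match. The match is in capitals.
Map3k14: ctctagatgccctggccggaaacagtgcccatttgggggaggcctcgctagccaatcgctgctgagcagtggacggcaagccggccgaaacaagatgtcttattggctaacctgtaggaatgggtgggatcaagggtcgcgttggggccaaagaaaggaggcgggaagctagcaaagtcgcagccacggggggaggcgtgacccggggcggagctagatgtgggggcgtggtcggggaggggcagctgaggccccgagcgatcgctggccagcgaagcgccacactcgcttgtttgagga
Nfkb2: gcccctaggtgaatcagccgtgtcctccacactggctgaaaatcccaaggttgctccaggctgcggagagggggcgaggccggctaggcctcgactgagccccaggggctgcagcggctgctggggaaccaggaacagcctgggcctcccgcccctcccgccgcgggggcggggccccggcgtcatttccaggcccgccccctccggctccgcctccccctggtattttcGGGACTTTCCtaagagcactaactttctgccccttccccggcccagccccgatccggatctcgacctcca
Nfkb1: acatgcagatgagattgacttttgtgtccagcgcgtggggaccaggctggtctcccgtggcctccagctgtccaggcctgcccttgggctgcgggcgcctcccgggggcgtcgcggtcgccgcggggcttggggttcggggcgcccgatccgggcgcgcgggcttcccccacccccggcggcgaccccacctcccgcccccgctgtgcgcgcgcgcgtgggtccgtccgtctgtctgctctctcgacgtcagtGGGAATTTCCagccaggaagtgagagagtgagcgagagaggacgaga

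Map3k14 encodes NIK, the kinase on which the noncanonical pathway depends. Since it was chosen for its difference with NT3, its levels are described here without a test. It was the most thinly counted member, with 8 to 29 read-pairs in naïve rats, 9 to 35 with GFP and 18 to 52 with NT3. In naïve rats it was at 0.689 CPM at the lowest, 1.20 at the median and 1.74 at the highest. The rats labelled bPYX+GFP ran from 0.843 through a median of 0.972 to 2.43 CPM. Those labelled bPYX+NT3 ran from 1.53 through a median of 2.24 to 3.17 CPM. The groups overlapped: naïve rats 41 and 42 and GFP rat 57 lay above NT3 rats 23 and 39, and GFP rat 57 also lay above NT3 rats 2 and 17. Of the 6 NT3 rats, 4 lay above every naïve rat and 2 above every GFP rat. Among the GFP rats, rat 57 was the highest and the others were at or below 1.24 CPM.

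The naïve mean was 1.22 ± 0.491 CPM, the GFP mean 1.22 ± 0.613 CPM and the NT3 mean 2.24 ± 0.602 CPM (SD, n = 6 each), a ratio of 1.84 for NT3 rats over either other group. The fitted log2 fold change was 0.86 (SE 0.270) against naïve and 0.86 (SE 0.290) against bPYX+GFP rats, while GFP rats differed from naïve rats by 0.01 (SE 0.333), or by -0.35 without rat 57. Against bPYX+GFP the value rose to 1.21 without rat 57 and was 1.08 with rats 11 and 57 both left out, and against naïve it was 0.74 without rat 11. With a term for the no-feature share it was 0.67 against bPYX+GFP and 0.62 against naïve. Under the groups that the recorded file titles give, it was -0.49 and -0.57, that is, lower in the rats titled NT3. The study itself lists Map3k14 as higher with NT3 in both comparisons.

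**Figure D1:**
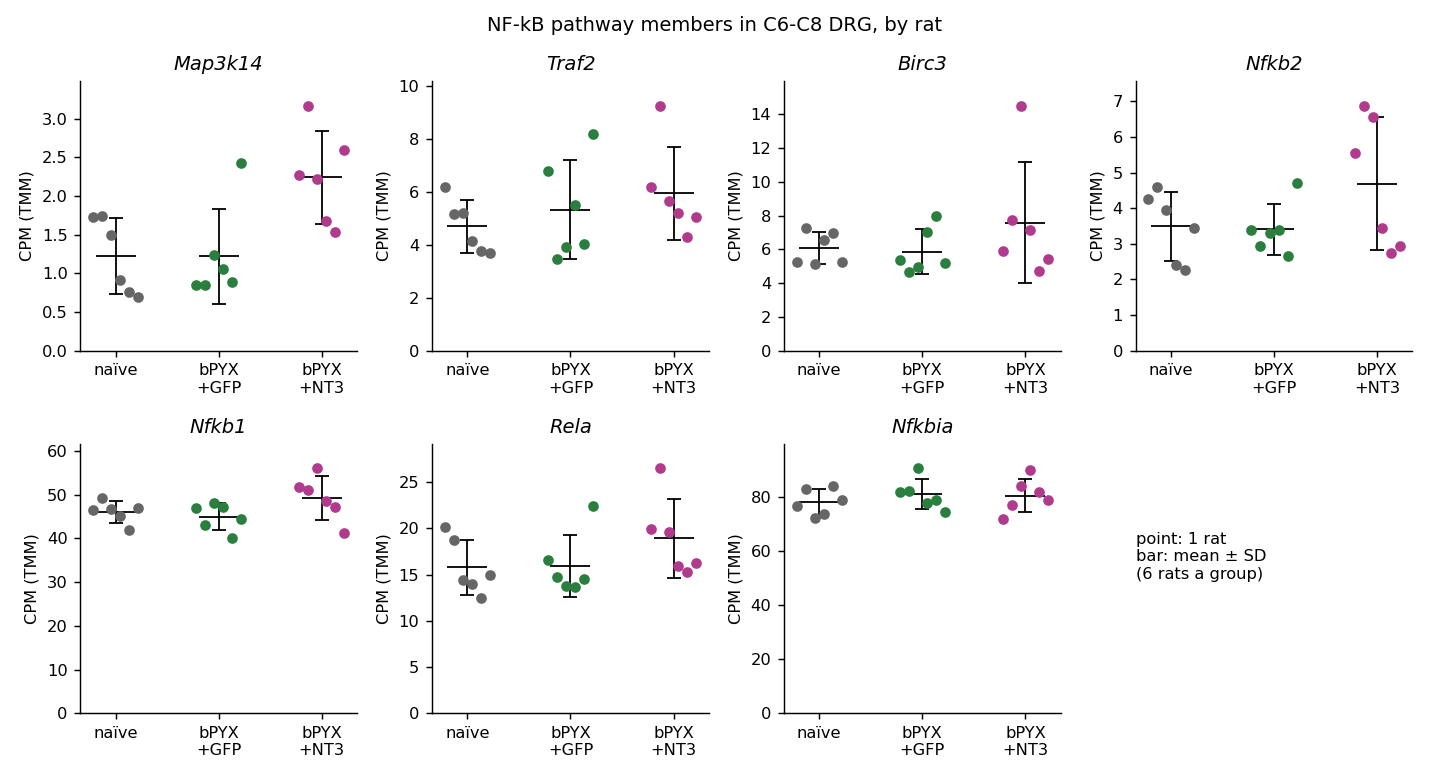
Levels of the 7 measured NF-kB genes by rat. The y axes show CPM after TMM scaling from 0, each point is 1 rat, and bars are the mean ± SD of 6 rats. In every panel the 3 groups overlap. Map3k14 was highest on average in bPYX+NT3 rats, with a mean of 2.24 CPM against 1.22 in both other groups.

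The complex that holds NIK low was measured through Traf2 and Birc3. Traf2, the adaptor that joins TRAF3 to the cIAP ligases, was at 3.70, 4.64 and 6.20 CPM (lowest, median and highest) in naïve rats. In bPYX+GFP rats the same values were 3.46, 4.78 and 8.19 CPM. In bPYX+NT3 rats they were 4.29, 5.43 and 9.26 CPM. The highest GFP and NT3 values were again those of rats 57 and 11, and the groups overlapped widely. Traf2 differed by 0.19 (SE 0.224) on the log2 scale between GFP and naïve rats, by 0.34 (SE 0.194) between NT3 and naïve rats and by 0.16 (SE 0.243) between NT3 and GFP rats, with unadjusted p of 0.410, 0.102 and 0.531 in edgeR's quasi-likelihood test. The exact permutation p (two-sided) of Traf2 were 0.567, 0.128 and 0.483. Without rat 57 the difference between GFP and naïve rats was 0.013 and that between NT3 and GFP rats 0.32, while without rat 11 the NT3 differences were 0.17 against naïve and -0.026 against GFP rats.

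Birc3 encodes a ubiquitin ligase of the same complex, and is also a target gene of NF-kB. Its RefSeq entry lists Birc2 as a synonym, but Birc2 has a row of its own (NM_021752). Birc3 ran from 5.13 through a median of 5.91 to 7.24 CPM in naïve rats. It ran from 4.64 through 5.30 to 8.00 CPM in GFP rats and from 4.75 through 6.53 to 14.5 CPM in NT3 rats. A single rat, NT3 rat 17, set the highest value, and the other 5 NT3 rats were at or below 7.74 CPM. The log2 fold changes were -0.05 (SE 0.158) for GFP against naïve, 0.32 (SE 0.241) for NT3 against naïve and 0.37 (SE 0.255) for NT3 against GFP rats, with edgeR p of 0.754, 0.212 and 0.171 and exact permutation p of 0.721, 0.437 and 0.312. Without rat 17 the NT3 differences were 0.04 and 0.08.

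Nfkb2, the precursor that NIK directs into p52, was at 2.26, 3.70 and 4.61 CPM (lowest, median and highest) in naïve rats. In GFP rats it was at 2.67, 3.35 and 4.72 CPM. In NT3 rats it was at 2.76, 4.50 and 6.89 CPM. The NT3 rats split, with rats 2, 11 and 17 at 5.56 to 6.89 CPM, above every other rat of the study, and rats 23, 39 and 40 at 2.76 to 3.44 CPM, inside the naïve range. Nfkb2 had the largest partner difference, 0.42 (SE 0.268) for NT3 against naïve and 0.46 (SE 0.255) for NT3 against GFP rats. Neither passed, with edgeR p of 0.137 and 0.0930 and exact permutation p of 0.234 and 0.171. Between GFP and naïve rats it differed by -0.03 (SE 0.205, edgeR p = 0.884, exact permutation p = 0.976). Without rat 11 the NT3 differences fell to 0.28 against naïve and 0.31 against GFP rats, and without rat 57 the latter was 0.58. GFP rats differed from naïve rats by -0.16 without rat 57.

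The canonical subunits were counted more deeply. Nfkb1, the gene of p105 and p50, was at 41.8, 46.6 and 49.3 CPM in naïve rats, at 39.98, 45.7 and 48.1 CPM in GFP rats and at 41.3, 49.8 and 56.0 CPM in NT3 rats (lowest, median and highest). Of the NT3 rats, 4 were above every GFP rat and 1, rat 40, was below all but 1 of them. The 95% intervals of its log2 fold change were -0.16 to 0.10 for GFP against naïve, -0.06 to 0.25 for NT3 against naïve and -0.04 to 0.30 for NT3 against GFP rats, around values of -0.03, 0.10 and 0.13, with edgeR p of 0.607, 0.202 and 0.113. The exact permutation p (two-sided) of Nfkb1 were 0.502, 0.208 and 0.104.

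Rela, the subunit that carries the transactivation domain of the canonical dimer, was at 12.5, 14.7 and 20.1 CPM in naïve rats, at 13.6, 14.6 and 22.4 CPM in GFP rats and at 15.2, 17.9 and 26.5 CPM in NT3 rats. Rats 57 and 11 were again the highest of their groups. All 6 NT3 rats were above the median of the naïve and of the GFP rats, yet only rat 11 was above the highest of either. The log2 fold changes were 0.02 (SE 0.150) for GFP against naïve, 0.26 (SE 0.151) for NT3 against naïve and 0.25 (SE 0.164) for NT3 against GFP rats, with edgeR p of 0.901, 0.111 and 0.158 and exact permutation p of 0.955, 0.152 and 0.177. Without rat 11 the NT3 differences fell to 0.14 against naïve and 0.12 against GFP rats. Without rat 57 the difference from GFP rats was 0.37, without both rats it was 0.25, and GFP rats then differed from naïve rats by -0.11.

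Nfkbia encodes the inhibitor IkB alpha, and its transcription is a standard readout of canonical NF-kB activity. Its levels were 72.4, 77.9 and 84.3 CPM in naïve rats, 74.5, 80.5 and 90.8 CPM in GFP rats and 71.8, 80.5 and 90.0 CPM in NT3 rats. The 3 groups covered almost the same range. Its log2 fold change had 95% intervals of -0.07 to 0.18, -0.10 to 0.18 and -0.15 to 0.13 in the comparisons of GFP with naïve, NT3 with naïve and NT3 with GFP rats, with edgeR p of 0.391, 0.528 and 0.904. The exact permutation p (two-sided) of Nfkbia were 0.364, 0.487 and 0.89.

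Counted together, 0 of the 6 partners passed an unadjusted p of 0.05 between bPYX+GFP and naïve rats in edgeR's quasi-likelihood test, where 3.25% of 11601 genes did. The count was 0 of 6 between bPYX+NT3 and naïve rats, where 6.01% of 11693 genes passed, and 0 of 6 between bPYX+NT3 and bPYX+GFP rats, where 1.73% of 11623 genes passed. Split by direction, the shares of all genes were 0.733% higher and 2.52% lower, 3.09% and 2.92%, and 1.08% and 0.654%, in the same order. DESeq2, edgeR's likelihood ratio test and exact permutation tests (two-sided, log2 CPM) also called 0 partners in each comparison. Of all genes, DESeq2 called 3.22% and the likelihood ratio test 2.95% between GFP and naïve rats. Their shares for NT3 against naïve rats are given below, and those for NT3 against GFP rats are not given here. The share of all genes under the exact permutation test was not counted. With p-values adjusted across the whole table (Benjamini-Hochberg), the quasi-likelihood test called 0 genes in each of the 3 comparisons. The groups overlapped for all 6 partners in each comparison, while 0.241%, 0.265% and 0.0602% of all genes had groups that did not overlap. The adjusted p of the partners was at least 0.607. The median log2 fold change of the partners was -0.01, 0.29 and 0.20 in the 3 comparisons, beside 0.01, 0.00 and 0.00 over all genes tested, with 3, 6 and 5 of the 6 partners above 0. The comparisons share samples, so these medians are not separate evidence. In the NT3 comparison with GFP rats, leaving out rat 57 called Nfkb2 and Rela, but then 19.8% of all genes passed in place of 1.73%. Leaving out rats 11 and 57 called Rela, with 12.7% of all genes, leaving out rat 39 called Nfkb2 (0.58), with 2.52% of all genes, and leaving out rat 40 called Nfkb2 (0.57) and Nfkb1 (0.18), with 1.95%. Against naïve rats, leaving out naïve rat 41 called Traf2 (0.43) and Rela (0.34), with 10.2% of all genes, and leaving out rat 40 called Nfkb1 (0.15), with 5.64%.

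**Figure D2:**
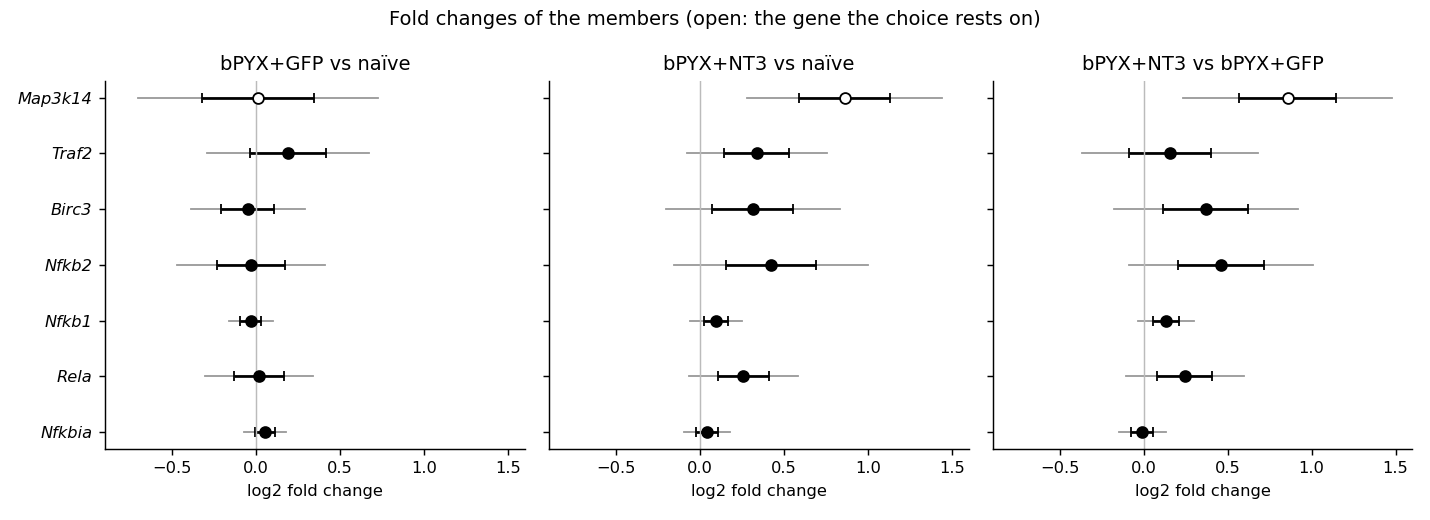
Log2 fold changes of the 7 genes in the 3 comparisons, named above each panel, first group minus second. Points are edgeR estimates, thick bars are ± 1 SE and thin bars 95% intervals from 6 rats a group. Map3k14 (open) was the reason for the choice, so its intervals are drawn as a description and are not to be read as a test. The intervals of the 6 partners include 0 in every panel, and they are narrowest for Nfkb1 and Nfkbia.

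Across the 18 rats, 4 of the members followed the no-feature share, the percentage of read-pairs that were assigned to no annotated gene. On log2 CPM, Pearson's r was -0.80 for Map3k14 (Spearman's rho -0.81), -0.83 for Traf2 (rho -0.73), -0.73 for Nfkb2 (rho -0.66) and -0.89 for Rela (rho -0.80). The permutation p adjusted over the 7 members were 3.5e-05, 7e-05, 0.00133 and 3.5e-05 for r and 0.000595, 0.00224, 0.00639 and 0.000595 for rho. The unadjusted p of Map3k14 and Rela for r, 1e-05, is the smallest that 100000 permutations can give. Libraries in which fewer read-pairs missed the genes therefore had more Map3k14, Traf2, Nfkb2 and Rela for their depth. The relation did not rest on rats 11 and 57 alone: without the 2 rats farthest from the median share, r was -0.74, -0.63, -0.61 and -0.76. It was also present among rats of the same group, with r of -0.84, -0.82, -0.69 and -0.88 once group means were removed. Birc3 (r = -0.13, rho -0.12), Nfkb1 (r = -0.31, rho -0.23) and Nfkbia (r = 0.40, rho 0.42) did not pass, with adjusted permutation p of 0.582, 0.246 and 0.148 for r and 0.621, 0.427 and 0.114 for rho.

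These r values were not extreme in the table. Of the 11543 genes tested in all 3 comparisons, 18.8% had a lower r with the no-feature share than Map3k14, 15.5% than Traf2, 23.8% than Nfkb2 and 7.95% than Rela, and the median gene was at 0.0078. The no-feature share averaged 33.6% in naïve, 33.5% in GFP and 32.9% in NT3 rats. With that share added as a term in edgeR, the NT3 differences of Traf2, Nfkb2 and Rela shrank to 0.11, 0.18 and 0.08 against naïve rats and to -0.04, 0.27 and 0.09 against GFP rats, where that of Traf2 turned in sign. In that fit 0 of the 6 partners passed an unadjusted p of 0.05 in each comparison. Of all genes, 7.31% passed there between GFP and naïve rats, against 3.25% without the term. The shares for the NT3 comparisons in that fit are not given here. Map3k14 fell from 0.86 to 0.62 against naïve rats and from 0.86 to 0.67 against GFP rats. What sets the no-feature share, and its part in the group differences, was not tested.

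**Figure D3:**
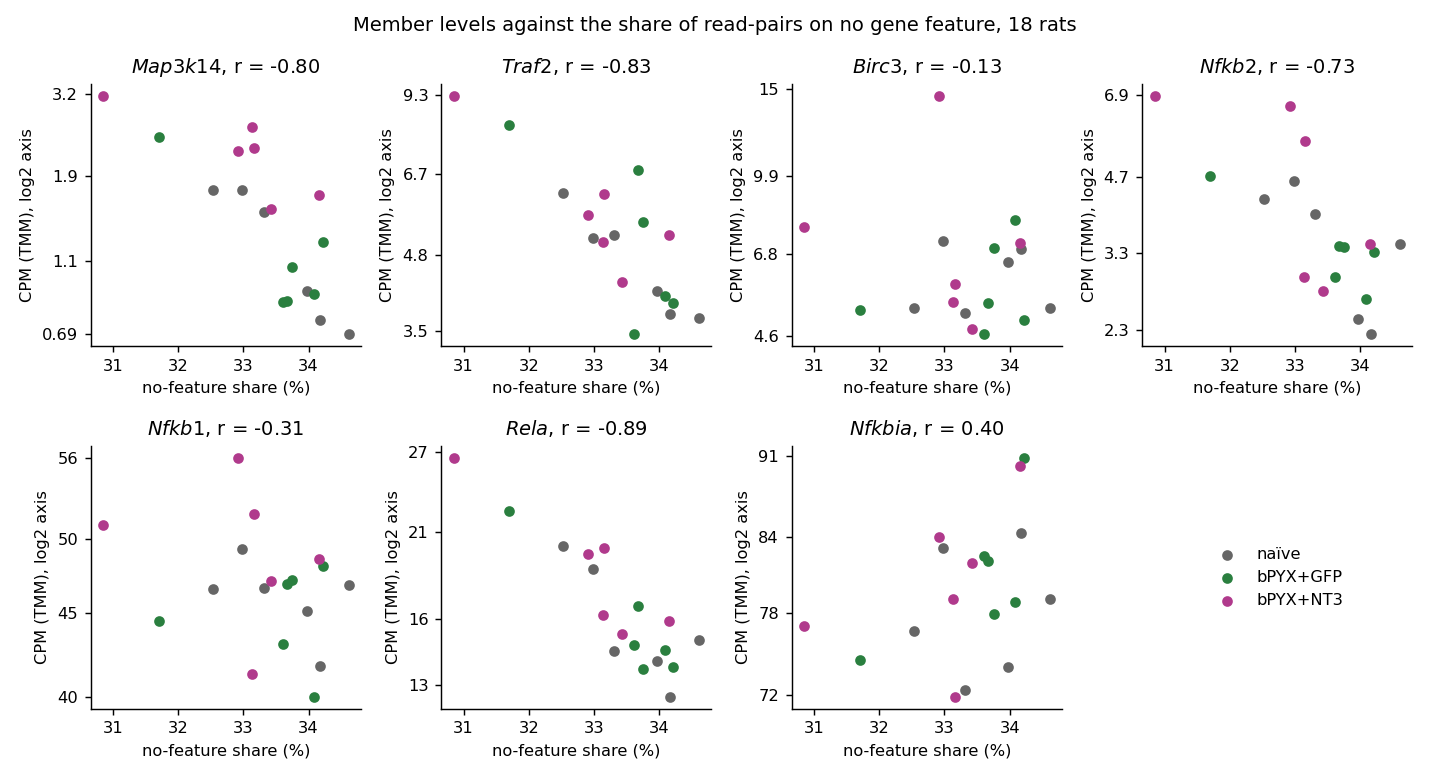
Levels of the 7 genes against the share of read-pairs on no gene feature. The x axis is the share in percent, the y axis is CPM on a log2 axis, and each point is 1 of 18 rats, coloured by group. Map3k14, Traf2, Nfkb2 and Rela fell as the share rose, with r from -0.73 to -0.89, while Birc3, Nfkb1 and Nfkbia had r between -0.31 and 0.40.

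Of the 21 pairs of members, 7 had an adjusted permutation p for r under 0.05 across 18 rats, and 7 did after group means were removed. The lowest r among them was 0.72, and 10.5% of all pairs of the 11543 genes had an r at least as high, so such an r was common in these libraries. They joined Map3k14 with Traf2 (r = 0.72, rho 0.68, adjusted permutation p = 0.0027 and 0.0103), with Nfkb2 (r = 0.73, rho 0.63, p = 0.00228 and 0.0194) and with Rela (r = 0.79, rho 0.74, p = 0.00063 and 0.00602). After group means were removed, r was 0.74, 0.68 and 0.76 for these 3 pairs. The other 4 pairs were Traf2 with Nfkb2 (r = 0.75, rho 0.72), Traf2 with Rela (r = 0.84, rho 0.73), Nfkb2 with Rela (r = 0.86, rho 0.78) and Nfkb2 with Nfkb1 (r = 0.78, rho 0.67). Their adjusted permutation p were 0.00193, 0.00021, 0.00021 and 0.000787 for r and 0.00772, 0.00602, 0.00602 and 0.0103 for rho. Leaving out the 2 rats farthest from the median of the first gene gave r of 0.59, 0.70, 0.75, 0.64, 0.69, 0.81 and 0.66, in the order named. Nfkbia and Birc3 belonged to none of these pairs. Once a line on the no-feature share was removed from each gene, only 2 pairs passed, Nfkb2 with Nfkb1 (r = 0.85) and Nfkb2 with Rela (r = 0.69), and no pair with Map3k14 did.

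**Figure D4:**
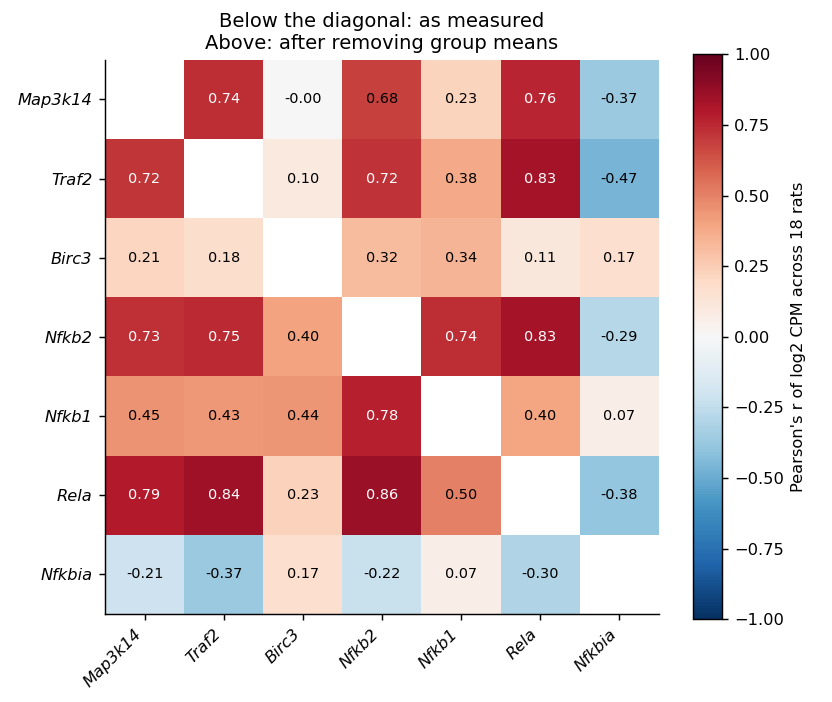
Pearson's r between the 7 genes across 18 rats on log2 CPM, with genes on both axes and r printed in each cell. Cells below the diagonal use the values as measured and cells above it use values with group means removed. Map3k14, Traf2, Nfkb2 and Rela form a block with r from 0.72 to 0.86, and the pair Nfkb2 and Nfkb1 is at 0.78.

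The genes most like Map3k14 across the 18 rats, on log2 CPM with group means left in, lay outside the pathway. Among 11542 genes the highest r were those of Ncan (neurocan, a brain-enriched chondroitin proteoglycan, 0.92), Stx1a (syntaxin 1A, a presynaptic SNARE protein, 0.91), Ruvbl2 (a chromatin and helicase ATPase, 0.89), Dhps (deoxyhypusine synthase, 0.89) and Unc45a (a myosin chaperone, 0.89). Their own r with the no-feature share ran from -0.78 for Ncan to -0.94 for Unc45a. The partners ranked far lower, Rela at 721, Nfkb2 at 1658, Traf2 at 1834, Nfkb1 at 3864, Birc3 at 4906 and Nfkbia at 6693. These r are descriptions and carry no test. They include the NT3 difference for which Map3k14 was chosen, and each gene from Ncan to Unc45a was highest on average in NT3 rats. Ncan averaged 18.3, 20.6 and 25.6 CPM in naïve, GFP and NT3 rats, and Stx1a 4.46, 4.47 and 6.72 CPM. The ranking was not repeated with group means removed.

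Around these members, 68 other genes of the pathway were listed by role, and 52 of them had exactly 1 row. In bPYX+GFP against naïve rats 0 of the 46 tested passed an unadjusted p of 0.05 in edgeR (background 3.25%), in NT3 against naïve rats 1 of 46 (6.01%) and in NT3 against GFP rats 0 of 45 (1.73%). Their median log2 fold changes were 0.02, 0.06 and 0.10. Ligands were thinly measured: of the 9 listed, only Il1a, Il1b and Tnfsf12 (TWEAK, a trigger of the noncanonical pathway) were tested, Il1a not in NT3 against GFP rats, and Lta and Cd40lg were too low.

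Among the receptors, Ngfr was the gene that passed in NT3 against naïve rats. It encodes p75, the receptor that binds all neurotrophins and can signal to NF-kB. Ngfr was at 254, 306 and 356 CPM (lowest, median and highest) in naïve rats, 271, 293 and 461 CPM in GFP rats and 319, 346 and 541 CPM in NT3 rats. The groups overlapped, with 2 NT3 rats above the highest naïve rat. The log2 fold change was 0.34 (SE 0.135, p = 0.0243, adjusted p = 0.607), the two-sided exact permutation p was 0.0693, and Ngfr no longer passed when rat 2, 11, 44, 45 or 49, or rats 11 and 57 together, were left out. Against GFP rats it was 0.27 (SE 0.157, edgeR p = 0.112, exact permutation p = 0.145). The tested receptors that feed the noncanonical branch did not pass. Between NT3 and naïve rats Tnfrsf12a (Fn14, the TWEAK receptor) differed by 0.60 (edgeR p = 0.0510, exact permutation p = 0.115) and Ltbr (the lymphotoxin beta receptor) by 0.43. Tnfrsf11a (RANK) differed by 0.0086 there (edgeR p = 0.937, exact permutation p = 0.853). Cd40 was too low to be tested.

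Downstream, the 3 IKK subunits Chuk, Ikbkb and Ikbkg stayed between -0.10 and 0.10 on the log2 scale in all comparisons. None of the 6 inhibitors tested passed. The largest of them was Tnip1, an A20-binding brake on the pathway, at 0.52 (edgeR p = 0.0504, exact permutation p = 0.106) between NT3 and naïve rats. None of the 16 target genes tested passed, and they ranged from -0.83 (Cxcl10) for GFP against naïve rats to 1.26 (Cxcl13) for NT3 against GFP rats. The edgeR p were 0.0855 for Cxcl10 and 0.184 for Cxcl13, and the exact permutation p 0.381 and 0.301. Tnfrsf12a, Ltbr, Tnfrsf11a, Cd40, Tnip1, Cxcl10 and Cxcl13 were named after their values were seen. Irak1, a kinase of the interleukin-1 receptor pathway, had a two-sided exact permutation p of 0.0368 between NT3 and naïve rats at a log2 fold change of 0.07 (edgeR p = 0.178).

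Cxcl12, a chemokine that the noncanonical pathway induces in stromal cells, was split over 2 RefSeq transcripts and stands outside these counts, since the counting could divide its reads. The transcript NM_001033883 had a median of 7.84 CPM in naïve, 7.54 in GFP and 6.24 in NT3 rats. The transcript NM_022177 had medians of 21.6, 18.0 and 15.6 CPM. Both had an edgeR p under 0.05 for NT3 against naïve rats, at -0.33 (SE 0.140) and -0.35 (SE 0.147) on the log2 scale, with edgeR p of 0.0324 and 0.0317 and exact permutation p of 0.0216 and 0.0563. Neither passed against GFP rats (-0.25 and -0.14, exact permutation p = 0.143 and 0.333). The fibroblast marker Dcn was also lower in NT3 than in naïve rats (-0.28, edgeR p = 0.0484, exact permutation p = 0.0693), and its part in the Cxcl12 difference was not tested.

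**Figure D5:**
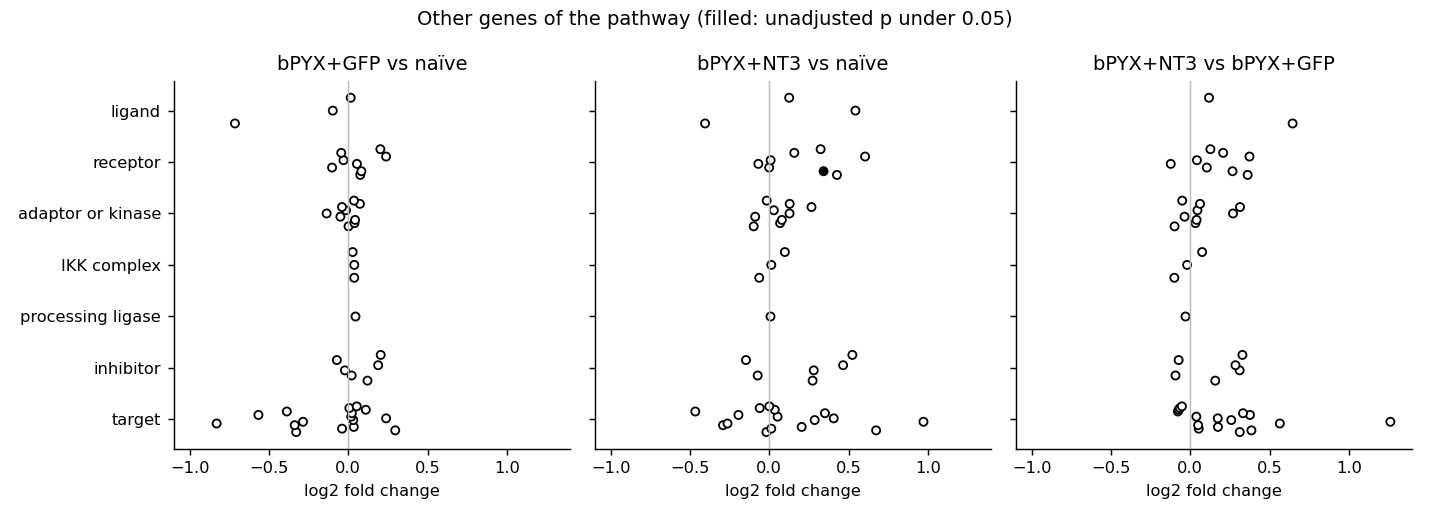
Log2 fold changes of the other pathway genes with 1 row, grouped by role on the y axis, in the 3 comparisons. Each point is 1 gene, filled where the unadjusted edgeR p was under 0.05. The filled point is Ngfr at 0.34 in bPYX+NT3 against naïve rats, and the points range from -0.83 to 1.26.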

How the data were processed

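Whole C6 to C8 ganglia of the treated side of 18 rats were sequenced as stranded poly(A) libraries (50 bp paired-end reads). The authors made the reads with bcl2fastq 1.8.4, aligned them to Rnor_6.0 (rn6) with TopHat2, removed duplicates with Picard and counted read-pairs per RefSeq identifier with HTSeq. The deposited values are whole-number counts that are not normalized, as 1 table and 1 file per rat, and 18 of 18 files equalled the table column of the same rat. The strand setting and the annotation version are not given in the sources used here. Rows for read-pairs on no feature (mean 33.3%), ambiguous features (2.95%) or several locations (21.1%) named no gene and entered neither library sizes nor tests.

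Symbols were matched to identifiers through RefSeq (14187 of 15075 matched). The 9 genes, the lists and the tests were chosen with earlier results of these data known. Differential expression was fitted for each pair of groups in edgeR 4.0.16 in R 4.3.3 (TMM, estimateDisp, glmQLFit, glmQLFTest, no covariate) keeping each gene counted over 10 times in 6 or more of the 12 rats, with Benjamini-Hochberg adjustment over all of them. The minimum of 10 reads and edgeR follow the study, which filtered once for all groups and whose tables carry likelihood ratio statistics; here each pair of groups was filtered separately. The unadjusted threshold of 0.05 is the study's. The scripts were tested on simulated data. Log2 CPM (prior count 2) of single genes was also compared by an exact permutation test (two-sided), whose smallest possible p with 6 rats against 6 is 0.00216, and relations across rats by 100000 permutations (Python 3.11.15, numpy 2.4.6, pandas 2.3.3, scipy 1.17.1, matplotlib 3.10.9). No RNA integrity covariate was used. The genes named are the 9 genes, listed pathway genes with p under 0.05 in a comparison, and the 5 genes with the highest r with Map3k14, besides cell type markers and genes chosen after their values were seen (the IKK subunits, Irak1 and those the report states). Alternatives were DESeq2 1.42.0, the likelihood ratio test, other scalings and filters, 1 fit over the 3 groups, the no-feature share as a covariate, the groups of the file titles and leaving out each rat. A replicate block, leaving out rats 11 and 57, and removing the no-feature share before pairing genes were added after seeing the data. Counting error limits Map3k14, which had 8 to 52 read-pairs per rat.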

Additional observations from a re-analysis of the deposited data

Results flagged for a closer look

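In 24 groups of 6 rats, those of the 7 members and Ngfr, the highest or lowest rat was compared with the others by the gap to its neighbour relative to the range, a criterion that flags about 1 group in 20 by chance. The highest rat stood apart in 5 groups, and 4 of these were bPYX+GFP rat 57. The same rats recur in these groups and several of the genes vary together, so the flags are not independent. How often rat 57 stood apart over all genes was not counted. In that rat Map3k14 was at 2.43 CPM against 0.843 to 1.24 in the other GFP rats. Nfkb2 was at 4.72 CPM there against 2.67 to 3.40. Rela was at 22.4 CPM against 13.6 to 16.6. Ngfr, the p75 neurotrophin receptor, was at 461 CPM against 271 to 330. The no-feature share of rat 57 was 31.7%, against 33.6 to 34.2% in the other GFP rats. The remaining group was Birc3 in bPYX+NT3 rats, where rat 17 was at 14.5 CPM against 4.75 to 7.74 in the others, with a no-feature share of 32.9%.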

How the results depend on the processing

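Under the groups of the recorded file titles the log2 fold changes for NT3 against naïve rats were -0.57 (Map3k14), -0.28 (Traf2), -0.23 (Birc3), -0.56 (Nfkb2), -0.17 (Nfkb1), -0.26 (Rela) and -0.076 (Nfkbia). For NT3 against GFP rats, those that changed sign were -0.49 (Map3k14), -0.10 (Traf2), -0.13 (Nfkb2), -0.073 (Nfkb1) and -0.10 (Rela). For GFP against naïve rats the values were -0.081 (Map3k14), -0.19 (Traf2), -0.24 (Birc3), -0.44 (Nfkb2), -0.09 (Nfkb1), -0.17 (Rela) and -0.0037 (Nfkbia). That grouping called 1 partner (Nfkb1) between NT3 and naïve rats (2.85% of all genes), 2 pathway genes between GFP and naïve rats (1.49%) and 1 between NT3 and GFP rats (2.26%). For Map3k14 the NT3 direction under that grouping is opposite to the one the study lists. In all other settings that could be fitted, Map3k14 stayed higher in NT3 rats, between 0.62 and 1.00 against naïve and between 0.67 and 1.21 against GFP rats, and it had no value where more than 10 reads were required in all 12 rats. With a term for the no-feature share, Rela in GFP against naïve rats was -0.017, Traf2 in NT3 against GFP rats -0.040 and Nfkbia there 0.020. Scaling by library size alone gave 0.029 for Nfkbia there, and leaving out rats 11 and 57 gave -0.11 for Rela in GFP against naïve rats.

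The pathway count for NT3 against naïve rats (1) was 3 by the likelihood ratio test (6.35% of all genes called there), 4 by DESeq2 (7.00%), 3 with DESeq2 size factors (6.18%), 2 with library size alone (5.64%), 3 with no filter (5.76%), 2 with the stricter filter (6.03%), 2 in the fit over 3 groups (4.96%) and 0 without rats 11 and 57 (3.14%), which also gave 1 partner and 4 pathway genes for NT3 against GFP rats (12.7%). Removing the no-feature share left 2 of the 7 related pairs of members. Leaving out 1 rat at a time, partners called ranged from 0 to 2 for NT3 against naïve and from 0 to 2 for NT3 against GFP rats. Pathway genes called ranged from 0 to 2 for GFP against naïve, from 0 to 6 for NT3 against naïve and from 0 to 6 for NT3 against GFP rats. In the same fits all genes called ranged from 272 to 595, from 365 to 1387 and from 95 to 2291, so the list counts moved beside the whole table. Related pairs ranged from 7 to 8. Small partner differences changed sign, with ranges of -0.16 to 0.0087 (Birc3), -0.16 to 0.064 (Nfkb2) and -0.11 to 0.10 (Rela) for GFP against naïve rats and of -0.026 to 0.32 (Traf2) and -0.041 to 0.026 (Nfkbia) for NT3 against GFP rats. All genes called went from 201 to 2291 without rat 57 and to 95 without rat 11 for NT3 against GFP rats. They went from 703 to 1387 without rat 23 and to 365 without rat 11 for NT3 against naïve rats, and from 377 to 848 with the covariate for GFP against naïve rats. The likelihood ratio test and DESeq2 called 13 and 16 genes after adjustment between GFP and naïve rats and 0 in the other comparisons. The cause was not tested.

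The number in each title was also tried as a replicate block, added after seeing the data. The numbers share no stated litter or day, and the deviations of same-numbered rats correlated over 0.1 in 5 of 6 pairs for NT3 against naïve (the sixth was -0.30), 2 of 6 for GFP against naïve and 3 of 6 for NT3 against GFP rats (range -0.40 to 0.53). As not every pair was over 0.1 and only 5 of 18 rats correlated best with their own number, the numbers are not taken to pair the rats. With the block, NT3 against naïve rats had 3 partners called (Traf2, Nfkb2 and Rela) and 7 pathway genes, but also 2962 genes of the table (25.3%) in place of 703. GFP against naïve rats had 1 pathway gene with the block (2.72% of all genes).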
